A study of Mus musculus with 27 samples.

Results

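The cytochrome P450 genes of the intestine were described here as a family, across 3 regions of the gut and 2 diets. A gene was taken as a member when it is protein-coding in the mouse, when its symbol has the form Cyp, number, letter, number, and when its mean over all 27 libraries was at least 1 CPM (counts scaled to a common library total). Of 93 P450 genes with such a symbol, 41 were members and 52 were not, of which 9 had no count in any library. The table holds 52550 genes in all. The mean level chose the members, so their presence in the gut is not a result. A gene that is abundant in a single region passes that threshold through the region, so counts of members that differ between regions are given as a description.

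The samples came from male C57BL/6 mice that were 6 weeks old on arrival and had 7 days to acclimatize. They then ate standard feed (control) or feed with a total of 30 ug arsenic per g for 60 days, with 10 mice on each diet. Arsenite made up 72.7% of the added arsenic, dimethylarsinic acid 19.0%, arsenate 7.3% and monomethylarsonic acid 1.0%. Polyadenylated RNA was sequenced from the ileum (the last segment of the small intestine; 4 control and 5 arsenic libraries), the cecum (the pouch at the start of the large intestine; 4 and 5) and the colon (5 and 4). Libraries are named below by region, diet and the number in their label, 1 to 5 on control feed and 11 to 15 on arsenic feed.

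Each library held 15717600 to 18208518 counts. The regional labels were matched by marker genes: 7 ileal markers summed to 4214 to 13005 scaled CPM in the ileum libraries, 63.2 to 366 in the cecum and at most 456 in the colon, and 10 markers of the large intestine summed to 162 to 243, 28528 to 41133 and 6558 to 13432. Fabp6, an ileal bile acid binding protein, was nevertheless at 6.13 and 1.33 scaled CPM (defined below) in ileum arsenic 14 and 15, against a mean of 1847 ± 1748 (SD, n = 4) in the control ileum. The tissue was bulk intestine, in which fewer cells of a type and less RNA per cell cannot be told apart. The labels do not tie the libraries to separate mice beyond their numbers, so p-values measure only the spread between these libraries.

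Cytochromes P450 are heme enzymes that insert an oxygen atom into their substrates, and most take electrons from NADPH through P450 oxidoreductase. Families 1 to 3 oxidize drugs, plant compounds and pollutants, family 4 hydroxylates fatty acids and eicosanoids, and smaller families act on sterols, bile acids, vitamin D and retinoic acid. Their genes are read by ligand-activated receptors, among them the aryl hydrocarbon receptor (AHR) for family 1, the constitutive androstane receptor for Cyp2b10 and the pregnane X receptor for Cyp3a11, and intestinal enterocytes carry several of these enzymes at the tip of the villus. The 41 members comprised 21 genes of family 2, 9 of family 4, 4 of family 3, 2 of family 1, 2 from the bile acid and oxysterol families, and 1 each from family 20, from families 24 and 27, and from family 26. None of the 6 genes of steroid hormone synthesis was a member.

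Pieces of DNA from 6 promoters show what lies just upstream of genes described below: Cyp2s1 and Cyp1a1, called with arsenic in opposite directions in the ileum, and 2 pairs of neighbours with similar coding sequence (Cyp2c65 and Cyp2c66, Cyp2d9 and Cyp2d10). Each is the 250 bases before the gene's start in RefSeq (build GRCm38.p6), read 5′ to 3′ on the gene's strand, and they were chosen after the motif matches were seen. Capitals mark matches to a motif: GCGTG (the AHR core) and TATAAA in Cyp1a1, CAAAGTCCA (bound by HNF4 factors) in Cyp2c65, and a direct repeat named DR1, which nuclear receptors bind, in the Cyp2d genes. TATAAA, on one strand or the other, also occurs in the windows of Cyp2c65, Cyp2c66, Cyp2d9 and Cyp2d10 and is left in lower case there. The windows are chr7:25816526-25816775 on the minus strand for Cyp2s1, chr9:57697363-57697612 on the plus strand for Cyp1a1, chr19:39060756-39061005 on the plus strand for Cyp2c65, chr19:39113648-39113897 on the plus strand for Cyp2c66, chr15:82452127-82452376 on the plus strand for Cyp2d9 and chr15:82407195-82407444 on the minus strand for Cyp2d10.
Cyp2s1: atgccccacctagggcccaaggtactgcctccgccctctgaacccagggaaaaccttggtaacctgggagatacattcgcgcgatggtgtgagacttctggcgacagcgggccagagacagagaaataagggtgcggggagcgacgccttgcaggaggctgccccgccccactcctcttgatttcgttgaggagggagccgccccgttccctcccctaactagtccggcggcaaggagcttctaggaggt
Cyp1a1: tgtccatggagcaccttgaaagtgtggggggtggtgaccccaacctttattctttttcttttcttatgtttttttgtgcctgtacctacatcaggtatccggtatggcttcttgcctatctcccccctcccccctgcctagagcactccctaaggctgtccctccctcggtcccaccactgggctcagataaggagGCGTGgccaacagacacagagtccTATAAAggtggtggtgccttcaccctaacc
Cyp2c65: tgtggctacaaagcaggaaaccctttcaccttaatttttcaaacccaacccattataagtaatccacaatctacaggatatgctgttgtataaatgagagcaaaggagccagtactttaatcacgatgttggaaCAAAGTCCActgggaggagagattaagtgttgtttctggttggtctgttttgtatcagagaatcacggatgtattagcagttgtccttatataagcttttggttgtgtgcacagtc
Cyp2c66: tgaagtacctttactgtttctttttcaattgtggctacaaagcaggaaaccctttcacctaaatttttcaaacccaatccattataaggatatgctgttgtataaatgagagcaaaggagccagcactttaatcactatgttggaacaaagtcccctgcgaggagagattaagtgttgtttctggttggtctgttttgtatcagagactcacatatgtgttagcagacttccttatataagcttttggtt
Cyp2d9: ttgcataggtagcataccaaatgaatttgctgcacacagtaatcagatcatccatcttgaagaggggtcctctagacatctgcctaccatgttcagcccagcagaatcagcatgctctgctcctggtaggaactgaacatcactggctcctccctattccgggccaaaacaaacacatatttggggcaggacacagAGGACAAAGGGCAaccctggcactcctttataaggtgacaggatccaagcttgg
Cyp2d10: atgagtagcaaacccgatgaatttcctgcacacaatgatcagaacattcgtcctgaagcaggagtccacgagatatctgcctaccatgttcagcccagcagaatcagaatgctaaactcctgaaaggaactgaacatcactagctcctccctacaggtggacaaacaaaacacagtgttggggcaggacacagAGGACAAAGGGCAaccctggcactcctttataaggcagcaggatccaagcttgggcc

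A promoter window was held for 33 of the 41 members, and 11 motifs were searched in it on both strands. The 33 members had 38 windows. A member counted when any of its windows matched, whereas the shares over all genes are of single windows. The AHR core GCGTG was present in 30.3% of these members and in 28.2% of the 32851 windows of all genes. With its flank (TNGCGTG, which contains GCGTG) it was present in 3.03% and 4.10%. In Cyp1a1 the core began 54 bases before the start, whereas the Cyp2s1 window held none of the 11 motifs. The HNF4 motif CAAAGTCCA was present in 12.1% of members (Cyp2c65, Cyp2c68, Cyp2c69 and Cyp3a11) and in 0.384% of all windows. In Cyp2c65 it began 116 bases before the start, and Cyp2c66, whose coding sequence was 96.3% identical, had no match to it. The DR1 repeat was found in Cyp2d9 and Cyp2d10, at 54 and 57 bases before the start, that is in 6.06% of members and 0.0944% of all windows. TATAAA stood in 33.3% of members and 12.4% of all windows. The CDX motif TTTATNG, which can overlap the reverse of TATAAA, was in 15.2% and 9.81%, the HNF1 motif in 3.03% and 0.371%, TTATGNAA (a D-box) in 9.09% and 3.07%, CACGTG (an E-box) in 6.06% and 6.02%, TGACNNNGC (an antioxidant response element) in 6.06% and 10.2%, and GAANNTTC (a heat shock element) in 3.03% and 6.69%. A match is a description of these letters in this window, not a bound site. Matches in genes of similar sequence are not independent. Coding sequences were 91.2% identical between Cyp2c68 and Cyp2c69 and 92.5% between Cyp2d9 and Cyp2d10.

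Levels below are scaled CPM: CPM after scaling the libraries by TMM (trimmed mean of M-values), so that libraries can be compared. Summed over the 41 members, the control libraries held 5047 ± 551 scaled CPM in the ileum (SD, n = 4), 9978 ± 1125 in the cecum (n = 4) and 4601 ± 1506 in the colon (n = 5). The arsenic libraries held 4940.3 ± 2753 (n = 5), 8396 ± 995 (n = 5) and 4390.3 ± 892 (n = 4). Cyp2c55, an arachidonic acid oxidase, made up 67.8 ± 3.39% of the sum in the control cecum, 38.2 ± 20.6% in the control colon and 1.21 ± 0.465% in the control ileum. Per kilobase of exon, which allows genes to be compared, Cyp2c55 stood at 3401 CPM per kb in the control cecum, ahead of Cyp2c65 at 394 and Cyp3a13 at 229. In the control colon the order was Cyp2c55 at 1001 CPM per kb, Cyp2d34 at 178 and Cyp4f14 at 173. In the control ileum it was Cyp4f14, which hydroxylates leukotriene B4, at 614 CPM per kb, Cyp3a13 at 313, Cyp4v3 at 121 and Cyp3a25 at 109.

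**Figure D1:**
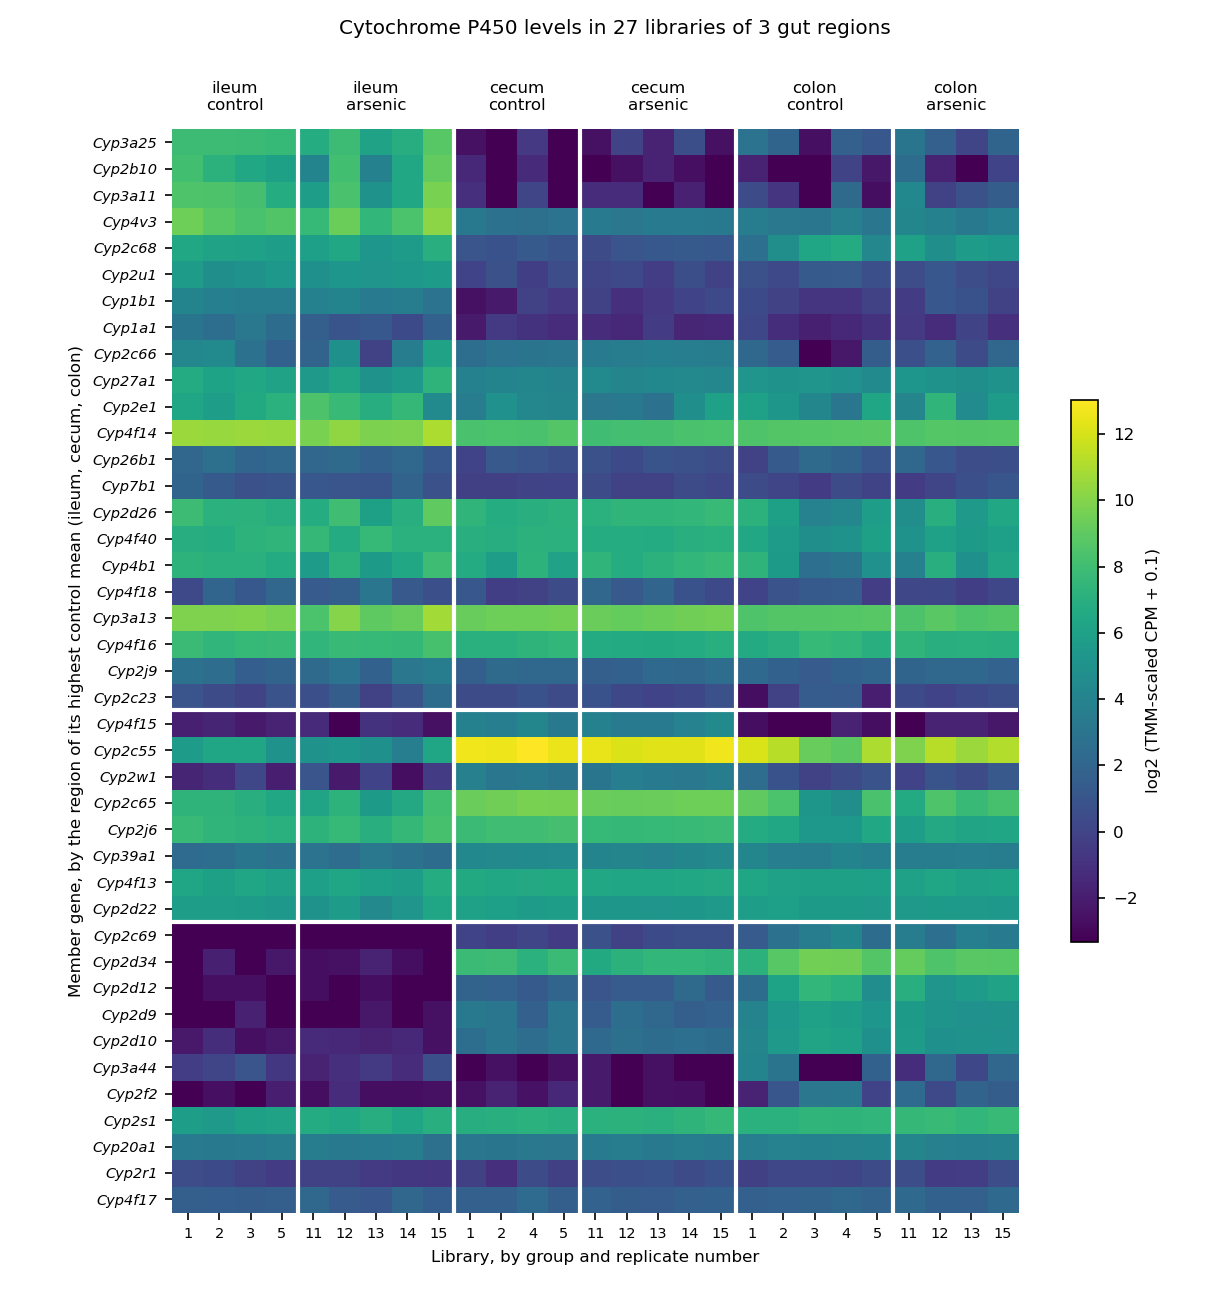
Heat map of the 41 P450 genes (rows, grouped by the region of their highest control mean) in the 27 libraries (columns), coloured by log2(scaled CPM + 0.1). Ileal genes (22) fill the first block of rows, followed by 8 cecal and 11 colonic genes, and the columns are uneven among the ileum arsenic and the colon libraries.

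The highest control mean was that of the ileum for 22 members, of the cecum for 8 and of the colon for 11. On arsenic feed the same region was highest for 38 of 41. A mean of at least 1 CPM before TMM scaling was reached by 33 members in the control ileum, 30 in the control cecum and 37 in the control colon. In scaled CPM, 24 had a mean of at least 1 in all 6 groups of libraries. The regional tests below compared libraries on the same feed with edgeR's quasi-likelihood test, and a gene counted as called when its p, adjusted by Benjamini-Hochberg over all genes tested, was under 0.05.

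Between cecum and ileum on control feed, 27 of 41 members were called, 12 higher and 15 lower in the cecum. Of all 16882 genes tested, 54.9% were called, 28.4% higher and 26.5% lower. A change of over 4-fold was called for 20 members, against 9.97% of all genes. Between colon and ileum, 26 members were called (11 higher and 15 lower in the colon), against 52.2% of all genes (27.7% higher, 24.5% lower), with 16 members over 4-fold against 8.12%. Between colon and cecum, 20 were called (12 higher and 8 lower in the colon), against 47.2% of all genes (21.9% higher, 25.3% lower), with 10 over 4-fold against 4.42%. The number of members called was thus near the background in colon against cecum. Among the 24 members at 1 scaled CPM or more in every group, which did not pass through a single region, 14, 10 and 13 were called in cecum against ileum, colon against cecum and colon against ileum, and 8, 1 and 4 of them over 4-fold. Their median absolute log2 change was 0.72, 0.74 and 1.18, beside 0.53, 0.41 and 0.45 over all genes.

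The same 3 tests on arsenic feed called 28 members in cecum against ileum (12 higher and 16 lower, with 52.2% of all genes called, 25% higher and 27.1% lower). They called 21 in colon against cecum (13 higher and 8 lower; 38.6% of all genes, 22.5% higher and 16.2% lower). In colon against ileum they called 28 (11 higher and 17 lower; 59.1% of all genes, 32.8% higher and 26.3% lower). Over 4-fold were 20, 11 and 15 members, against 8.8%, 3.62% and 9.21% of all genes. Of the control calls, 24 of 27, 16 of 20 and 24 of 26 were called in the same direction on arsenic feed, and no member was called in opposite directions. These were 88.9%, 80.0% and 92.3% of the members' control calls and 85.7%, 76.2% and 85.7% of their arsenic calls. Over all genes tested on both feeds the shares were 66.8%, 64.8% and 78.8% of control calls and 70.2%, 78.8% and 69.4% of arsenic calls, so that for colon against cecum the order of members and all genes depends on the denominator.

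**Figure D2:**
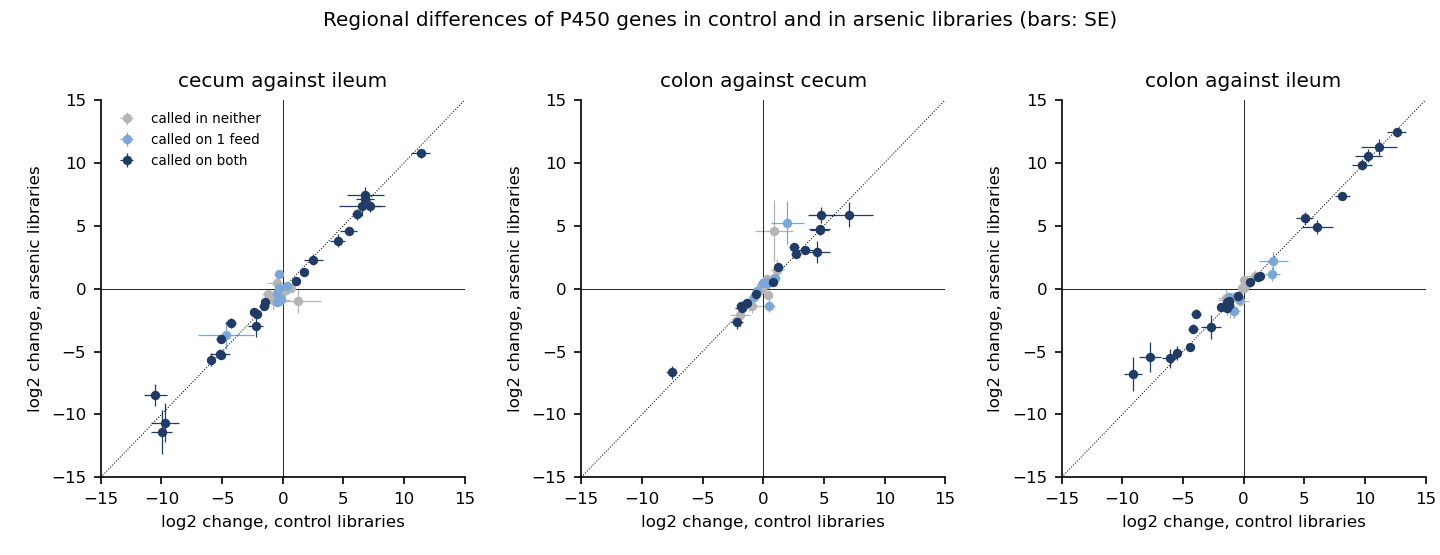
Log2 change between regions for each member in the control libraries (x axis) and the arsenic libraries (y axis), 1 panel per pair of regions, with bars for the standard error and a dotted line where both are equal. Colours mark genes called on both feeds, on 1 feed or on neither; 24, 16 and 24 members were called on both in the same direction.

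Several genes of drug oxidation were expressed mainly in the ileum. Cyp3a11, a target of the pregnane X receptor and a main drug-oxidizing enzyme of the mouse, stood at 372, 348, 294 and 114 scaled CPM in ileum control 1, 2, 3 and 5 and at no more than 0.987 in any cecum control library. In the control colon it stood at 1.27, 0.447, 0, 4.86 and 0.0525. The ranges of ileum and large intestine did not overlap, and the log2 change was -9.72 ± 1.16 (SE; edgeR adjusted p = 2.53e-05) in the cecum and -7.72 ± 0.90 (edgeR adjusted p = 2.43e-05) in the colon, each against the ileum. Cyp3a25, of the same family, stood at 239.5, 236, 229 and 199 in the control ileum and at a mean of 3.27 ± 2.64 (n = 5) in the control colon, a log2 change of -6.11 ± 0.62. Cyp2b10, the classical target of the constitutive androstane receptor, stood at 265, 147, 85.0 and 62.5 in the control ileum and under 1 in every control library of the cecum and colon. Its log2 change was -9.99 ± 0.89 in the cecum (edgeR adjusted p = 2.03e-06) and -9.09 ± 0.73 in the colon. Other members of family 3 were found beyond the ileum. Cyp3a13 stood at 925 ± 49.7 in the control ileum, 678 ± 54.3 in the control cecum and 404 ± 25.1 in the control colon, with log2 changes of -0.46 ± 0.09 from ileum to cecum and -0.74 ± 0.08 from cecum to colon. Cyp3a44, whose coding sequence was 94.9% identical to that of Cyp3a11, stood at 16.4, 7.77, 0, 0 and 3.25 in colon control 1 to 5, at 0.537 to 1.87 in the control ileum and at no more than 0.128 in any cecum library.

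Both members of family 1, which oxidize polycyclic aromatic hydrocarbons, were highest in the ileum. Cyp1a1 stood at 7.13 ± 1.84 scaled CPM in the control ileum (n = 4) and at most 1.06 in each control library of the other regions, with a log2 change of -4.28 ± 0.47 in the cecum and -3.95 ± 0.41 in the colon. Cyp1b1 went from 13.4 ± 2.40 to 0.403 and 0.735, with log2 changes of -5.07 ± 0.45 and -4.18 ± 0.38. Several fatty acid hydroxylases were also highest there. Cyp4v3 stood at 696, 438, 322 and 388 in the control ileum and at 6.35 to 14.1 in the other control libraries, with log2 changes of -5.93 ± 0.29 in the cecum (edgeR adjusted p = 1.92e-09) and -5.47 ± 0.25 in the colon. Cyp4f14 stood at 1484 ± 54.5 in the control ileum, 347 ± 41.9 in the cecum (log2 change -2.103 ± 0.10, edgeR adjusted p = 1.04e-09) and 419 ± 33.5 in the colon (log2 change -1.83 ± 0.10). Cyp2u1, another fatty acid hydroxylase, had log2 changes of -5.13 ± 0.30 and -4.44 ± 0.26. Cyp4f40 stood apart from these, at 113 to 169 in the control ileum, 119 to 143 in the cecum and 27.9 to 89.7 in the colon (colon against cecum -1.32 ± 0.28, edgeR adjusted p = 0.00222). Cyp4f18, which acts on leukotrienes in neutrophils, was called lower in the colon than in the cecum on arsenic feed (-1.37 ± 0.51, edgeR adjusted p = 0.0478) and not on control feed (0.45 ± 0.49, edgeR adjusted p = 0.469). The test of whether its arsenic effect differed between the 3 regions did not call it (edgeR adjusted p = 0.235). Of the sterol and retinoid enzymes, Cyp27a1, the mitochondrial sterol hydroxylase, was at 83.2 ± 17.6 in the control ileum and 16.2 ± 1.24 in the cecum (log2 change -2.37 ± 0.18), and Cyp26b1, which breaks down retinoic acid, had a log2 change of -1.53 ± 0.43. The oxysterol hydroxylases split: Cyp7b1 was lower in the cecum than in the ileum (log2 change -1.50 ± 0.31) and Cyp39a1 higher (1.73 ± 0.16).

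The cecum was marked by Cyp2c55, of the Cyp2c cluster on chromosome 19, and by Cyp4f15 and Cyp2w1, called higher there than in both other regions. Among further members called so on control feed were Cyp4f13 and Cyp39a1, with smaller changes. Cyp2c65, a neighbour of Cyp2c55, was called higher in the cecum than in the ileum on control feed, but not against the colon. Cyp2c55 stood at 6491, 6239.6, 8373 and 6037 scaled CPM in cecum control 1, 2, 4 and 5 and at 32.8 to 81.5 in the control ileum. The ranges did not overlap, and the log2 change was 6.79 ± 0.75 (edgeR adjusted p = 1.25e-05), with 7.12 ± 0.48 on arsenic feed. Against the cecum, the colon had a log2 change of -1.76 ± 0.56 on control feed (edgeR adjusted p = 0.0219) and -1.51 ± 0.41 on arsenic feed (edgeR adjusted p = 0.00951). The control call was lost without cecum control 4 (-1.65, edgeR adjusted p = 0.0507) and without a filter on low counts (edgeR adjusted p = 0.0569). Cyp2c65 stood at 761 ± 102 in the control cecum (n = 4), 133 ± 34.7 in the ileum (n = 4) and 253 ± 214 in the colon (n = 5), with a log2 change of 2.51 ± 0.77 for cecum against ileum (edgeR adjusted p = 0.0156). That call was lost when the replicate number was added as a block (edgeR adjusted p = 0.0656). The coding sequence of Cyp2c55 was 75.7% identical to that of Cyp2c65, and 6.12% of the 150-base stretches of Cyp2c65 and of Cyp2c66 also occur in other P450 transcripts. How far this alters their counts was not tested. Cyp4f15, a family 4 hydroxylase, stood at 14.4, 12.5, 18.3 and 9.52 in the control cecum and at no more than 0.422 in any library of ileum or colon. Its log2 change was 6.14 ± 0.41 against the ileum (edgeR adjusted p = 2.69e-08), and the colon was at -7.56 ± 0.43 against the cecum (edgeR adjusted p = 5.56e-08). Cyp2w1, known from the fetal gut and from colorectal tumours, was at 9.84 ± 2.61 in the control cecum, with 4.52 ± 0.64 against the ileum and -2.15 ± 0.49 for colon against cecum.

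The colon held the highest levels of 4 genes of the Cyp2d cluster on chromosome 15, Cyp2d34, Cyp2d10, Cyp2d9 and Cyp2d12. Cyp2d34 stood at 148, 445, 749, 732 and 398 scaled CPM in colon control 1 to 5 and at 227, 237, 137 and 229 in cecum control 1, 2, 4 and 5, while each ileum library held 0 to 4 counts of it. Colon and cecum overlapped through colon control 1, and the log2 change was 1.26 ± 0.40 (edgeR adjusted p = 0.0225). The call was lost without cecum control 4 (1.10, edgeR adjusted p = 0.0655) and with the replicate number as a block (edgeR adjusted p = 0.142). Cyp2d10 stood at 17.5 to 76.1 in the control colon and 5.64 to 8.44 in the control cecum, a log2 change of 2.72 ± 0.40 (edgeR adjusted p = 0.000169), and 2.76 ± 0.17 on arsenic feed. Cyp2d9 and Cyp2d12 were higher in the colon than in the cecum by 2.56 ± 0.43 (edgeR adjusted p = 0.000468) and 4.65 ± 0.87 (edgeR adjusted p = 0.00116) in log2 terms. Cyp2d26, among the 10 most abundant members, stood at 115 to 238 in the control ileum, 113 to 165 in the cecum and 14.9 to 146 in the colon, with no control call (colon against ileum -1.41 ± 0.55, edgeR adjusted p = 0.0502). Coding sequences were 92.5% identical between Cyp2d9 and Cyp2d10 and 92.1% between Cyp2d9 and Cyp2d12, so reads may be divided unevenly among them.

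Further genes with their highest control mean in the colon were Cyp2c69, Cyp2f2 and Cyp2s1. For Cyp2s1 the control libraries of cecum (115 to 139.7 scaled CPM) and colon (137 to 171) overlapped. Cyp2c69 had 0 counts in all 9 ileum libraries, and its mean in the control colon was at least 47.4-fold higher than the floor of 3 counts per library (0.165 to 0.191 CPM). Its coding sequence was 91.2% identical to that of Cyp2c68, which was called lower in the cecum than in both other regions (log2 change -5.19 ± 0.83 against the ileum, and the colon at 4.64 ± 0.80 against the cecum, edgeR adjusted p = 0.000677). Cyp2f2, known from club cells of the lung, had a log2 change of 4.79 ± 1.14 for colon against cecum, at a control colon range of 0.212 to 9.18. Cyp2s1, an epithelial P450 that responds to AHR ligands, was the reverse of Cyp1a1 along the gut: 59.1 ± 9.64 in the control ileum, 128 ± 10.1 in the control cecum and 154 ± 14.2 in the control colon, with a log2 change of 1.10 ± 0.12 between cecum and ileum and 1.38 ± 0.11 for colon against ileum (edgeR adjusted p = 2.65e-07).

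A few members differed little along the gut. Cyp4f17 had control means of 2.91 ± 0.128, 3.59 ± 1.04 and 3.61 ± 0.420 in ileum, cecum and colon, and Cyp2c23, an arachidonic acid epoxygenase, 1.47 ± 0.439, 1.33 ± 0.195 and 1.23 ± 1.24. Neither was called between any regions on either feed. Cyp2j9 (4.67 ± 1.78 in the control ileum and 4.15 ± 0.853 in the control cecum) was called only on arsenic feed, lower in the cecum and the colon than in the ileum (-0.82 ± 0.29 and -0.82 ± 0.31). Cyp4f13 (72.8 ± 9.09, 94.5 ± 3.98 and 65.7 ± 6.93) was called only on control feed, where the cecum was above the ileum by 0.37 ± 0.10 in log2 and the colon below the cecum (-0.52 ± 0.09). Neither was called in the test of whether the arsenic effect differed between the 3 regions (edgeR adjusted p = 0.559 for Cyp2j9 and 0.787 for Cyp4f13).

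Members varied widely among libraries of a group. Over the 24 members at 1 scaled CPM or more in every group, the median coefficient of variation was 14.6% in the control cecum and 11.8% in the arsenic cecum, but 20.7% and 47.3% in the control and arsenic ileum and 30.2% and 20.98% in the colon. In the arsenic ileum, Cyp3a11 stood at 56.7, 324, 34.3, 87.7 and 869.9 in arsenic 11 to 15. Cyp2b10 stood at 16.4, 274, 14.7, 84.7 and 544, and Cyp4v3 at 201, 660.4, 178, 344 and 1159. In each of the 3 genes arsenic 15 was highest, arsenic 12 next and arsenic 13 lowest. The summed level of 10 enterocyte markers was 47082 in arsenic 15, 33091 in arsenic 12, and 15805, 17618 and 16943 in arsenic 11, 13 and 14, and its part in these levels was not tested. Cyp2e1, which oxidizes ethanol, had another order, at 357, 219, 117, 191 and 23.0 in arsenic 11 to 15, with arsenic 11 highest and arsenic 15 lowest.

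In the colon the control libraries differed as widely, and 2 sets of genes ran in opposite directions. Cyp2c55 stood at 4334, 2497, 612, 484 and 2054 scaled CPM in colon control 1 to 5, and Cyp4b1, which oxidizes fatty acids, at 161, 48.2, 6.29, 7.62 and 30.9. Cyp2c68 stood at 6.19, 26.99, 78.2, 107 and 19.0. Control 3 and 4 were thus lowest in the first 2 genes and highest in the last. Cyp2c55 accordingly made up 63.1, 49.4, 18.4, 15.3 and 44.7% of the P450 sum in these 5 libraries. The highest library exceeded the lowest 9.0-fold for Cyp2c55, 19.1-fold for Cyp2c65, 33.3-fold for Cyp2d12 and 43.4-fold for Cyp2f2. Slc10a2, the bile acid uptake transporter, stood at 418, 229, 9.23, 11.7 and 164 in the same order, and 7 goblet cell markers summed to 16594, 22929, 37704, 41083 and 19863. Colon arsenic 11 resembled control 3 and 4: among the arsenic libraries it had the lowest Cyp2c55 (945, against 1552 to 2462) and Slc10a2 (17.8, against 87.8 to 283) and the highest goblet sum (29752). The part of these markers in the P450 levels was not tested.

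**Figure D3:**
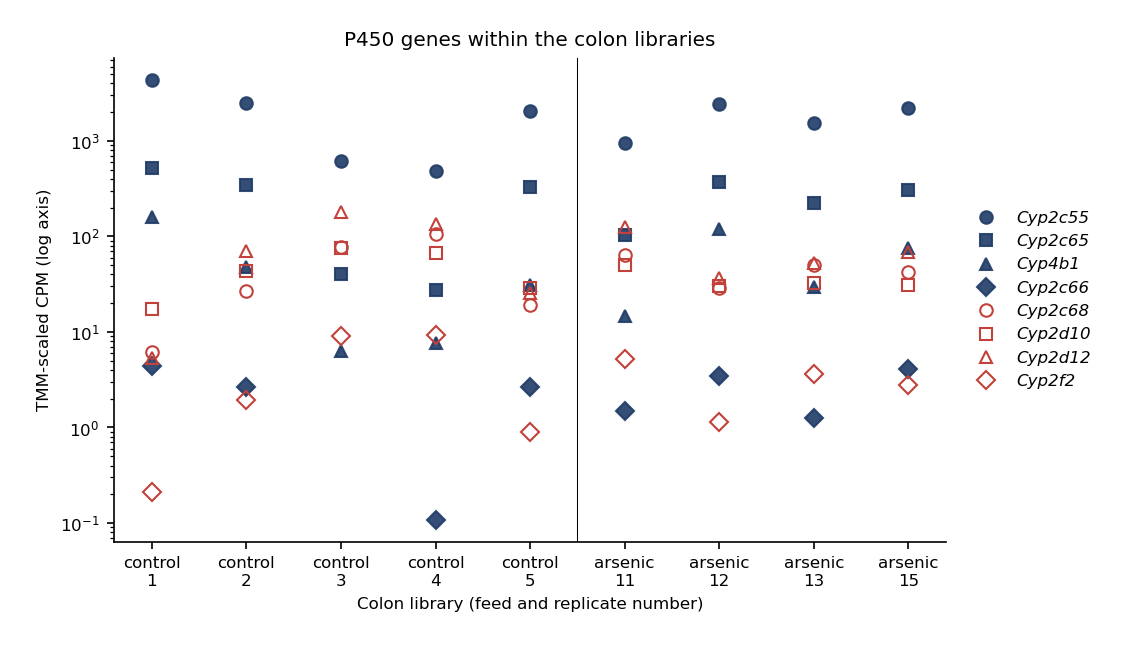
Level (scaled CPM, log axis) of 8 members in each colon library, with filled symbols for Cyp2c55, Cyp2c65, Cyp4b1 and Cyp2c66 and open symbols for Cyp2c68, Cyp2d10, Cyp2d12 and Cyp2f2. Filled genes are lowest and open genes highest in control 3 and 4, and arsenic 11 is the lowest arsenic library for Cyp2c55, Cyp2c65 and Cyp4b1; Cyp2c66 was at 0 in control 3 and is not drawn there.

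Arsenic feed was compared with control feed within each region. Cyp2s1 was higher with arsenic in both ileum and cecum and in the average over the 3 regions, and it was the only member called in that average. In the ileum it stood at 57.1, 46.6, 63.4 and 69.1 scaled CPM in control 1, 2, 3 and 5 and at 105, 84.7, 115, 80.3 and 120.3 in arsenic 11 to 15. In the colon it stood at 142, 137, 163, 159.5 and 171 in control 1 to 5 and at 191, 207, 184 and 207 in arsenic 11, 12, 13 and 15. In both regions every arsenic library was above every control library. In the cecum, with 115, 128, 139.7 and 128 on control feed and 139, 149, 136, 157 and 189.9 on arsenic feed, arsenic 11 and 13 lay below control 4. The log2 change was 0.74 ± 0.15 in the ileum (edgeR adjusted p = 0.0213) and 0.31 ± 0.09 in the cecum (edgeR adjusted p = 0.0202). It was 0.36 ± 0.09 in the colon, where it missed the threshold (edgeR adjusted p = 0.103, with 0.0115 to 0.305 over the alternatives). The average over regions was 0.47 ± 0.07 (edgeR adjusted p = 4.09e-05), and it was called in 34 of 34 alternative settings, with log2 changes of 0.44 to 0.49.

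The regional calls of Cyp2s1 were lost in some settings. Covariates for clock genes and cell markers were run only within regions, so the average was not tried against them. The ileum call was lost without ileum control 1 (edgeR adjusted p = 0.0591), 2 (edgeR adjusted p = 0.0850) or 3 (edgeR adjusted p = 0.0631), and the cecum call without cecum control 1 (edgeR adjusted p = 0.0682) or 5 (edgeR adjusted p = 0.0503). Whether its arsenic effect differed by region was tested in 1 fit of all libraries and not called (edgeR adjusted p = 0.119). With the level of clock genes as a covariate, its log2 change in the cecum was 0.10 (edgeR adjusted p = 0.707).

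**Figure D4:**
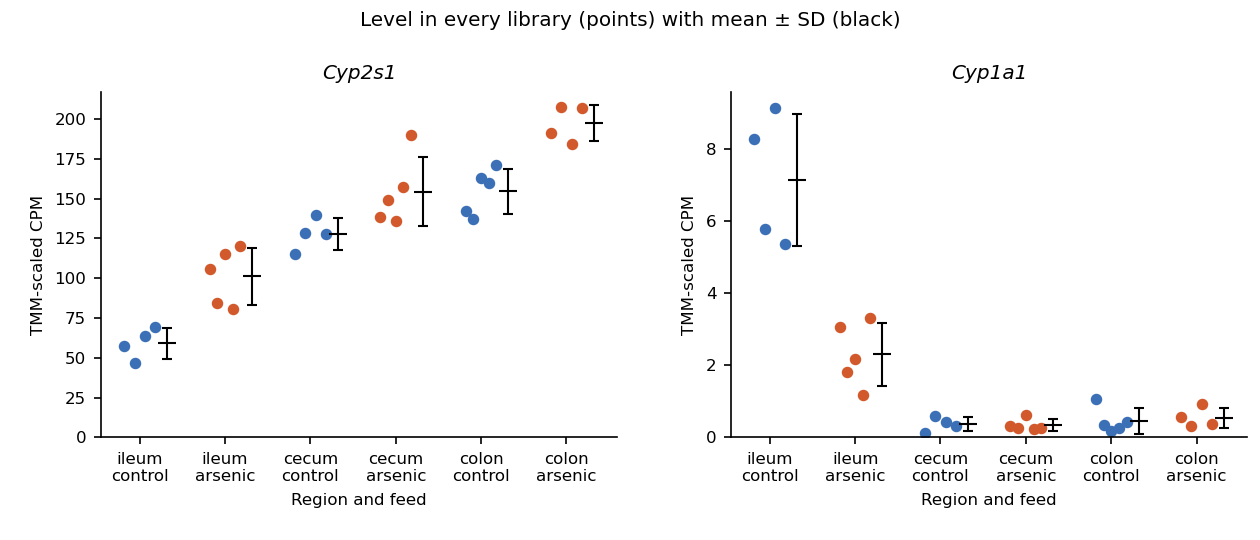
Level (scaled CPM) of Cyp2s1 and Cyp1a1 in each library (points), by region and diet, with the group mean ± SD in black. Cyp2s1 lies higher in every arsenic library than in every control library of ileum and colon, and Cyp1a1 lies lower in every arsenic library of the ileum.

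The filter on low counts left 33 of the 41 members to be tested in the ileum and 35 and 38 in the other regions. In the ileum 2 of 33 were called, 1 higher (Cyp2s1) and 1 lower (Cyp1a1), against 7.3% of the 16305 genes tested (4.02% higher, 3.28% lower), so that the share of members was near the background. Cyp1a1 stood at 8.25, 5.78, 9.12 and 5.37 scaled CPM in control 1, 2, 3 and 5 and at 3.05, 1.82, 2.16, 1.18 and 3.29 in arsenic 11 to 15. The groups did not overlap. These levels rested on 100 to 146 counts per control library and 22 to 61 per arsenic library. Its log2 change was -1.67 ± 0.29 (edgeR adjusted p = 0.0126), a call lost without ileum control 3 (-1.50, edgeR adjusted p = 0.0538). With the mean log2 level of 8 smooth muscle markers as a covariate, neither gene was called. Cyp1a1 kept a log2 change of -1.67 (edgeR adjusted p = 0.0915) and Cyp2s1 one of 0.55 (edgeR adjusted p = 0.165). Over all genes, 22 were called with this covariate and 1190 without it. These markers summed to 3646 to 6997 in the control ileum and 3702 to 4137 in the arsenic ileum. The arsenic effect on Cyp1a1 was not called as different between regions (edgeR adjusted p = 0.0650), and outside the ileum each library held no more than 1.06 scaled CPM. Members with uneven arsenic libraries, such as Cyp3a11 at 282 ± 117 on control feed and 275 ± 353 on arsenic feed, allowed no firm comparison at this spread.

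In the cecum 9 of 35 members tested were called, 6 higher and 3 lower, against 25.2% of the 15590 genes tested (11.3% higher, 13.9% lower). The share of members called was therefore close to that of all genes. The members' median log2 change was 0.02, as was that of all genes. The 3 that fell were Cyp2d22, the mouse gene closest to the human drug oxidase of its subfamily, Cyp4f16 and the arachidonic acid epoxygenase Cyp2j6. Cyp2d22 stood at 64.3, 60.1, 49.6 and 56.8 in control 1, 2, 4 and 5 and at 37.4 to 46.03 in the arsenic libraries, and fell by 0.46 ± 0.08 in log2 (edgeR adjusted p = 0.000896). Cyp4f16 stood at 130 to 179 on control feed and at 105, 102, 99.4, 105 and 121 on arsenic feed, and fell by 0.47 ± 0.09 (edgeR adjusted p = 0.00272). The 2 groups of libraries did not overlap in either gene. Cyp2j6 went from 263 ± 30.3 (n = 4) to 205 ± 15.2 (n = 5) with overlapping libraries, and fell by 0.32 ± 0.08 (edgeR adjusted p = 0.00854).

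Among the 6 that rose in the cecum, Cyp2c66 had the smallest adjusted p. It stood at 5.96, 7.47, 7.90 and 8.50 on control feed and at 11.1, 11.3, 13.5, 12.7 and 11.4 on arsenic feed, without overlap, a log2 change of 0.73 ± 0.13 (edgeR adjusted p = 0.00107). Its near-identical neighbour Cyp2c65 stood at 761 ± 102 and 641 ± 34.9, and Cyp2c55, the most abundant member, at 6785 ± 1075 and 5428 ± 764. Neither was called by edgeR with all libraries. Cyp2c55 was called lower by DESeq2 (-0.29, adjusted p = 0.0432) and by edgeR without arsenic 15 (-0.36, adjusted p = 0.0208), and Cyp2c65 by edgeR without control 1 (-0.29, adjusted p = 0.0114) and without a filter on low counts (-0.21, adjusted p = 0.0188). Reads shared between Cyp2c65 and the far less abundant Cyp2c66 could alter the level of the latter, which was not tested. Cyp2s1 is described above. Cyp4v3 (7.58 ± 1.47 to 10.3 ± 0.851; log2 change 0.47 ± 0.14, edgeR adjusted p = 0.0210), Cyp27a1 (16.2 ± 1.24 to 19.6 ± 1.54; 0.31 ± 0.09, edgeR adjusted p = 0.0222), Cyp20a1, an orphan P450 (8.72 ± 0.414 to 10.9 ± 1.06; 0.37 ± 0.11, edgeR adjusted p = 0.0239), and Cyp2r1, a vitamin D hydroxylase (0.796 ± 0.362 to 1.49 ± 0.160; 0.94 ± 0.31, edgeR adjusted p = 0.0343) made up the rest. Cyp2d22, Cyp2c66, Cyp4f16 and Cyp2j6 remained called whichever cecum library was left out. The other 5 did not: Cyp4v3 was lost without control 2 (edgeR adjusted p = 0.0590), 4 (edgeR adjusted p = 0.0602) or 5 (edgeR adjusted p = 0.0508), and Cyp27a1 without control 1 (edgeR adjusted p = 0.0696), 5 (edgeR adjusted p = 0.0554) or arsenic 14 (edgeR adjusted p = 0.0513). Cyp20a1 was lost without control 1 (edgeR adjusted p = 0.0577), 2 (edgeR adjusted p = 0.0589) or arsenic 14 (edgeR adjusted p = 0.0634), and without a filter on low counts (edgeR adjusted p = 0.0666). Cyp2r1 was lost without control 1 (edgeR adjusted p = 0.0769), 2 (edgeR adjusted p = 0.0928), 5 (edgeR adjusted p = 0.0779), arsenic 12 (edgeR adjusted p = 0.0550) or 13 (edgeR adjusted p = 0.0690).

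Other measures moved with diet in the cecum beside these genes. The summed level of 10 epithelial markers was 22564 to 24681 in the control cecum and 19127 to 22521 in the arsenic cecum, without overlap, and 4 of the 10 were called lower. Smooth muscle markers summed to 2837 to 3859 and 3264 to 5313, with 3 of 8 called higher. Goblet cell markers summed to 8233 to 9642 and 6203 to 7332, without overlap, with 4 of 7 called lower. Of the fibroblast markers 3 of 7 were called higher, and of the enterocyte markers tested 3 of 9 lower. Endothelial markers summed to 48.2 to 55.9 and 60.1 to 74.6, T cell markers to 22.4 to 33.9 and 27.3 to 45.4, and B cell markers to 2.61 to 40.7 and 9.99 to 192. Dbp, a clock output factor, stood at 11.9 to 14.7 on control feed and 25.2 to 45.5 on arsenic feed, and 13 of 18 clock genes were called, 8 higher and 5 lower. Its log2 change was 1.45 ± 0.14 in the cecum (edgeR adjusted p = 4.52e-05), and it was not called at 1.34 ± 0.39 in the ileum (edgeR adjusted p = 0.0721) or 1.00 ± 0.22 in the colon (edgeR adjusted p = 0.0827). Nfil3, a clock repressor, was lower in the colon (-1.53 ± 0.23, edgeR adjusted p = 0.0219). TMM factors were 0.852 to 0.884 and 0.903 to 0.985, again without overlap. Covariates were the mean log2 level of the genes of a list, not the sums above. With the epithelial markers as a covariate none of the 35 members was called. With the clock genes 1 was (Cyp4f16, log2 change -0.69, edgeR adjusted p = 0.0142), and with the smooth muscle markers 5 were. Calls over all 15590 genes went from 3933 to 7, 520 and 2040 with the same covariates. The log2 change of Cyp2d22 was -0.37, -0.32 and -0.44, and that of Cyp2c66 was 0.56, 0.51 and 0.77.

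In the colon none of 38 members was called by edgeR, against 0.649% of the 16492 genes tested. At an unadjusted p under 0.05 there was 1 member, Cyp2s1, which DESeq2 called (log2 change 0.35, adjusted p = 0.0115). For Cyp3a11 the colon gave a log2 change of 2.20 ± 1.28, with 19.3 scaled CPM in arsenic 11 and at most 4.86 in any other colon library. Averaged over the 3 regions, 1 of 41 members was called, Cyp2s1, against 19.7% of the 17763 genes tested (9.53% higher, 10.2% lower). Without ileum arsenic 15, Cyp4f14 (-0.28, edgeR adjusted p = 0.00225) and Cyp2d22 (-0.42, edgeR adjusted p = 0.00162) were called too, and without cecum control 4 so was Cyp1b1 (0.72, edgeR adjusted p = 0.0461). When the arsenic effect was compared between regions, edgeR called 0 of 41 members, against 7.62% of all genes, with 4 at an unadjusted p under 0.05. DESeq2 called 2, Cyp1a1 (adjusted p = 0.0256) and Cyp2r1 (adjusted p = 0.0418). Without ileum arsenic 11, edgeR called these 2 as well.

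**Figure D5:**
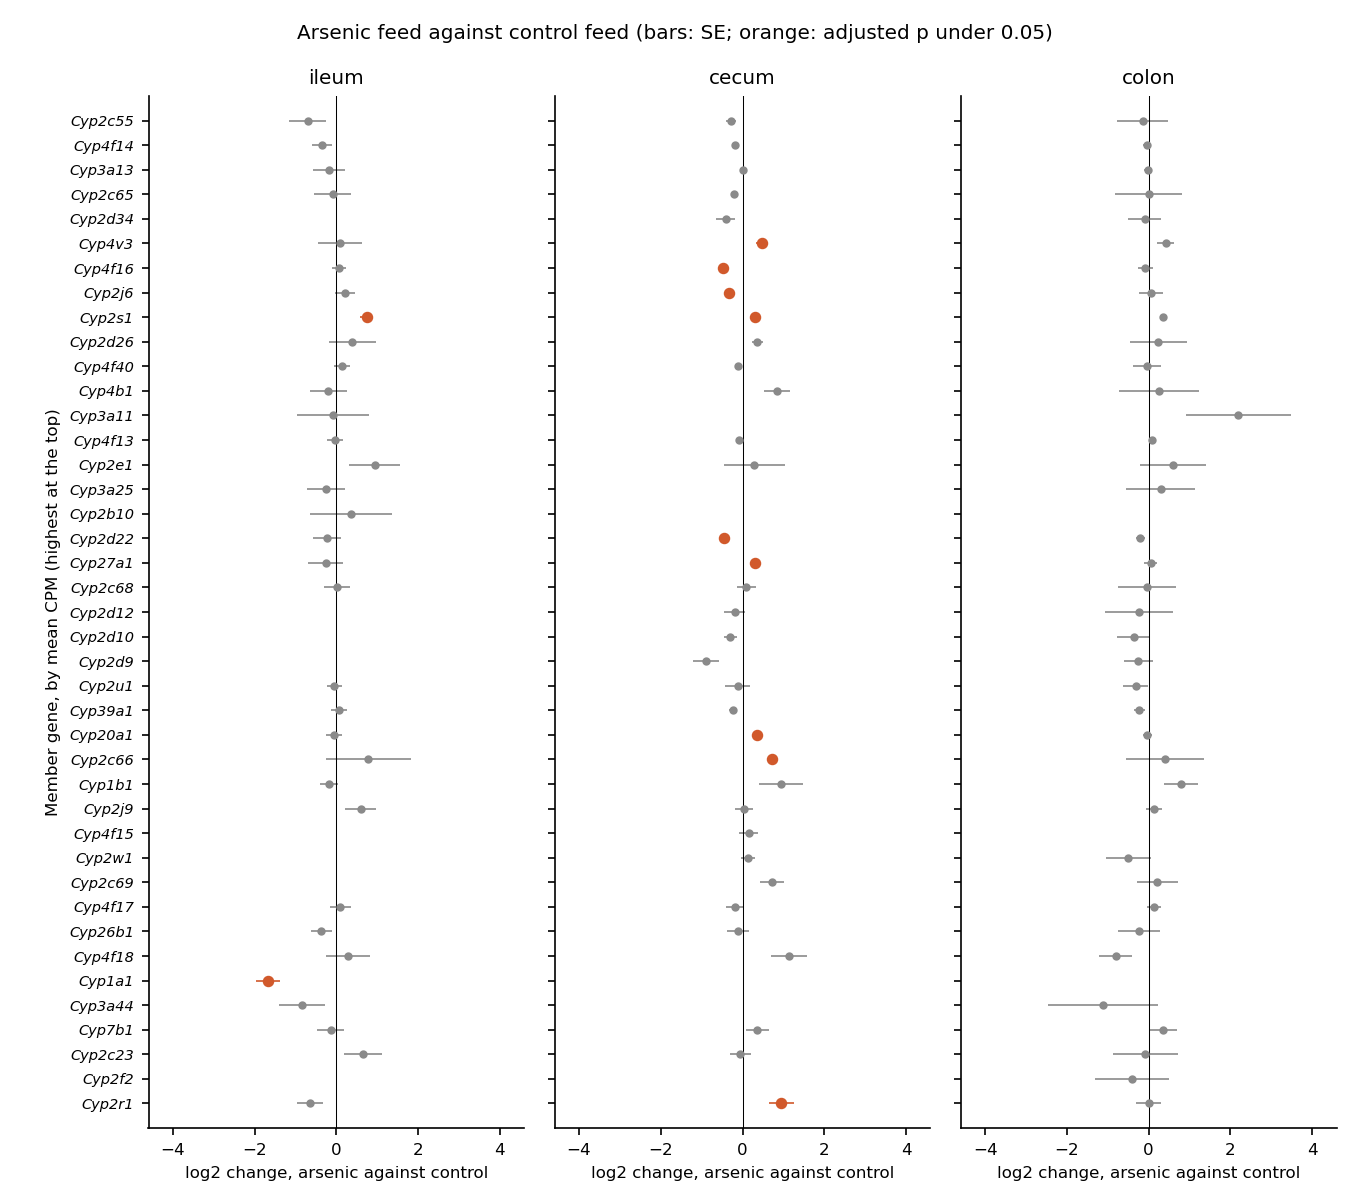
Log2 change of each member tested with arsenic feed in the ileum, cecum and colon (points, bars ± SE), with called genes in orange. Orange points number 2 of 33 in the first panel, 9 of 35 in the next and 0 of 38 in the last.

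The genes that serve the P450 enzymes were read from lists of their receptors, electron donors, heme supply and follow-on enzymes, chosen with earlier results known, and their counts stand beside the shares of all genes called given above for each region. Of 10 genes of the AHR pathway tested, none was called in the ileum or colon and 2 were called lower in the cecum. Tiparp, a direct AHR target that restrains the receptor, was one of them: it went from 45.7 ± 4.10 to 33.3 ± 3.62 scaled CPM in the cecum (log2 change -0.42 ± 0.09, edgeR adjusted p = 0.00377). In the ileum, beside Cyp1a1, it stood at 41.7 ± 5.10 and 29.4 ± 6.96 (-0.55 ± 0.16, edgeR adjusted p = 0.0581). Ahr itself stood at 11.7 ± 1.21 and 12.4 ± 3.04 in the ileum (0.04 ± 0.17, edgeR adjusted p = 0.921), with 0.12 ± 0.10 in the cecum and -0.04 ± 0.17 in the colon. Of 17 nuclear receptors tested, 1 was called higher in the ileum (Rxra, the shared partner of these receptors, 0.79 ± 0.14, edgeR adjusted p = 0.0128), 1 higher and 4 lower in the cecum, and none in the colon. Hnf4a, a hepatic and intestinal regulator, was among the cecal ones, at 1613 ± 50.4 and 1116 ± 97.6 (-0.49 ± 0.07, edgeR adjusted p = 0.000230). The vitamin D receptor Vdr was also lower there (-0.27 ± 0.07) and Nr1h3, the oxysterol receptor, higher (0.43 ± 0.10). Nr1i2, the pregnane X receptor, was not called in any region, at -0.52 ± 0.16 in the ileum (edgeR adjusted p = 0.0783). It was at 0.17 ± 0.06 in the cecum (edgeR adjusted p = 0.0626) and 0.14 ± 0.07 in the colon (edgeR adjusted p = 0.361). Nr1i3, the constitutive androstane receptor, was not called either, at 1.06 ± 0.61, 1.00 ± 0.39 and 0.95 ± 0.79 in ileum, cecum and colon (edgeR adjusted p = 0.319, 0.0716 and 0.659).

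Electron donors and heme enzymes are read here against the 25.2% of all genes called in the cecum (13.9% lower, 11.3% higher). Of 9 electron donors, 1 was called higher in the ileum (Fdx1, the mitochondrial ferredoxin, 0.59 ± 0.10, edgeR adjusted p = 0.0126), 4 lower in the cecum and none in the colon. Por, the P450 oxidoreductase, stood at 372 ± 23.9 and 283 ± 30.8 in the cecum (-0.36 ± 0.07, edgeR adjusted p = 0.00302) and at 120.1 ± 16.03 and 202 ± 82.1 in the ileum (0.71 ± 0.24, edgeR adjusted p = 0.0974). Of 14 heme genes, 2 were called higher in the ileum, 2 higher and 5 lower in the cecum and none in the colon. Alas1, the rate-limiting enzyme of heme synthesis, was called in the ileum, at 88.3 ± 14.9 and 167 ± 38.7 (0.88 ± 0.17, edgeR adjusted p = 0.0185). In the cecum it stood at 289 ± 33.8 and 216 ± 43.0 (-0.38 ± 0.15, edgeR adjusted p = 0.0839). Alad, the next enzyme of the pathway, was called higher in the ileum too (0.71 ± 0.14, edgeR adjusted p = 0.0168), while in the cecum the smallest adjusted p among heme genes belonged to Abcb10, Blvrb and Ppox (-0.28 ± 0.06, -0.28 ± 0.07 and -0.30 ± 0.07). Hmox1, which breaks heme down, was not called, at -0.09 ± 0.23, -0.23 ± 0.12 and 0.15 ± 0.15 in ileum, cecum and colon (edgeR adjusted p = 0.849, 0.179 and 0.734). Of the epoxide and aldehyde enzymes that follow P450 oxidation, 2 of 10 were called higher in the ileum, 2 of 9 higher and 1 lower in the cecum, and none in the colon. Aldh1b1, a mitochondrial aldehyde dehydrogenase, was higher in the ileum (0.83 ± 0.19) and lower in the cecum (-0.31 ± 0.08). Of 14 genes of retinoid handling, 2 were called lower in the ileum, 1 higher and 2 lower in the cecum, and none in the colon. They included Dhrs9, a retinol dehydrogenase, in the ileum (-1.54 ± 0.34, edgeR adjusted p = 0.0248). Cyp51, the sterol demethylase that the symbol rule leaves out, was called higher in the cecum, at 156 ± 25.3 and 210.1 ± 10.5 (0.47 ± 0.09, edgeR adjusted p = 0.00331).

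The threshold of 1 CPM was met narrowly by Cyp2r1 (mean over 27 libraries 1.00 CPM), Cyp2f2 (1.40) and Cyp2c23 (1.46). The genes just under it were Cyp24a1, which inactivates vitamin D (0.724), Cyp2t4 (0.496) and Cyp17a1, a steroid hydroxylase (0.461).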

How the data were processed

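Polyadenylated RNA of mouse ileum, cecum and colon was sequenced as 150 bp paired reads, per the labels. The file deposited by the authors holds raw, unnormalized read counts by Ensembl identifier for 27 libraries (13 control, 14 arsenic). Alignment and counting tools listed in the submitters' processing notes are HISAT2 2.1.0, SAMtools and HTSeq 0.6.0, with DESeq2 1.6.3 listed besides. Build, annotation and strand setting are not given in the sources used here. Antisense, overlapping and near-identical genes are therefore uncertain. The series' design text speaks of rats and the sample labels of mice; the identifiers are those of mouse genes. Symbols came from GENCODE M21 for 52403 of 52550 identifiers, and the 147 without one held at most 0.00590% of a library's counts.

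Counts were filtered with edgeR's filterByExpr (minimum count 10, minimum total 15), scaled by TMM and tested with robust quasi-likelihood F-tests in R 4.3.3 with edgeR 4.0.16: the diets within each region, the regions within each diet, and the average and the difference of the arsenic effect in 1 fit of all 27 libraries. Adjusted p-values are Benjamini-Hochberg over all genes tested. Standard errors are the log2 change divided by the square root of F. DESeq2 1.42.0 and limma 3.58.1 (statmod 1.5.0) served as alternatives, with other scalings and filters, marker covariates and each library left out. Fits were tested on simulated data. Promoter windows are RefSeq's. Tables and figures used Python 3.11.15 with pandas 2.3.3, numpy 2.4.6 and matplotlib 3.10.9.

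The members and gene lists were chosen with earlier results of these data known. The members named are those called in a diet comparison (at most 15 by p), the 5 with the largest called change in each direction between 2 regions without overlap, the 10 most abundant, a list of textbook P450 genes, and the 3 on either side of the threshold; partner genes are at most the 3 called ones with the smallest p in a list, with Ahr, Nr1i2, Nr1i3, Por, Alas1, Hmox1 and Dbp. A few others, such as Cyp2d22 and Cyp4f14 in the average, were named after their values were seen.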

Additional observations from a re-analysis of the deposited data

Results flagged for a closer look

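Groups of 4 or 5 libraries numbered 222 (37 named members, each in 3 regions on 2 feeds). In 19 of them the gap of the highest or lowest library to its neighbour exceeded Dixon's 95% critical value. For normally distributed values chance gives 5%, or 11.1. Levels near 0 counts are not so distributed, so 19 cannot be weighed against 11.1. Colon arsenic 11 was far above the other arsenic colon libraries for Cyp3a11 (19.3 scaled CPM), Cyp2b10 (5.43) and Cyp2d10 (50.1). Colon control 4 was far above the other control colon libraries for Cyp3a11 (4.86), Cyp2b10 (0.918) and Cyp4f15 (0.216). Colon control 1 was so for Cyp4b1 (161), Cyp2w1 (5.56) and Cyp1a1 (1.06), and colon arsenic 13 was lowest for Cyp4f18 (0.728), a leukotriene hydroxylase of neutrophils. In the cecum, control 4 was lowest for Cyp2d34 (137) and highest for Cyp3a25 (0.564), and arsenic libraries stood high for Cyp1a1 (0.632 in arsenic 13), Cyp2d12 (4.87 in arsenic 14) and Cyp4f16 (121 in arsenic 15). In the ileum, the high libraries were control 3 for Cyp2d9 (0.187), arsenic 12 for Cyp2f2 (0.325), arsenic 13 for Cyp4f18 (8.34) and arsenic 14 for Cyp7b1 (3.603).

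Of the P450 genes under the threshold, 2 had a mean above 1 scaled CPM in a single arsenic group. Cyp24a1, which inactivates vitamin D, had a mean of 4.14 in the arsenic cecum, at 19.2, 1.13, 0.126, 0 and 0.274 in arsenic 11 to 15 and at most 0.0634 in the control cecum. Cecum arsenic 11 held 300 of its 325 counts over all 27 libraries, so the mean is that of 1 library. Cr2, a marker of B cells and follicular dendritic cells, was at 18.1 in the same library. The 7 B cell markers summed to 192, 95.9, 173, 41.9 and 9.99 in cecum arsenic 11 to 15. A link of these markers to Cyp24a1 was not tested. Cyp2c29 had a mean of 1.73 in the arsenic ileum, at 0, 2.34, 0.106, 0.968 and 5.26, and 0.0625 to 1.19 in the control ileum.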

How the results depend on the processing

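Precision is limited by 4 or 5 libraries a group and, for members under about 1 scaled CPM, by counts. The number of members called in the ileum, 2, became 4 with the clock gene covariate (2052 of all genes against 1190), 0 with the smooth muscle covariate (22; chosen after seeing the data) and 0 to 3 with 1 library left out. In the cecum 9 (3933 of all genes) became 14 with DESeq2 (9 higher, 5 lower; 4300 of all genes), 1 with the clock gene covariate (520), 0 with the epithelial covariate (7), 5 with the smooth muscle covariate (2040; chosen after seeing the data), 1 with all 27 libraries in 1 fit (2021) and 5 to 12 with 1 left out. In the colon 0 (107 of all genes) became 1 with DESeq2 (656) and stayed 0 with each library left out. For the average, 1 (3501 of all genes) became 3 without ileum arsenic 14 and 15 (3857; chosen after seeing the data) and 1 to 3 with 1 left out; for the difference between regions, 0 (1353) became 2 with DESeq2 (1837) and 0 to 2 with 1 left out. The cause was not tested.

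Control calls between regions ran from 26 to 28 (cecum against ileum), 18 to 26 (colon against cecum) and 24 to 29 (colon against ileum) with 1 library left out, and arsenic calls from 27 to 29, 15 to 21 and 25 to 31. Upper-quartile scaling moved the split of all genes in the cecum from 1768 higher and 2165 lower to 2448 and 1627, and that of members from 6 and 3 to 7 and 3. Directions were followed for members called in a diet comparison, the average or a regional comparison, except Cyp39a1, Cyp4f13 and Cyp2j9. None of those followed reversed its direction in the settings run for its comparison. Members not called were not followed. Upper-quartile scaling also moved the median over all genes of the difference in arsenic effect between cecum and ileum from -0.01 to 0.15 in log2.

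Replicate numbers recur across regions within a diet. Deviations from the group means correlated at -0.108 to 0.248 between same-numbered libraries of different regions. Libraries of different numbers were not compared in this way, so these values cannot decide whether the numbers pair the samples. With the replicate block, 26, 23 and 29 members were called between regions on control feed and 28, 23 and 28 on arsenic feed. With replicate as a random effect in limma (correlation 0.0927), 1 was called for the average. The difference between regions was run with the replicate block in edgeR instead, and 0 were called. The diets share no number, so no block could be used within a region.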
